A study of Mus musculus with 6 samples.

Results

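The tricarboxylic acid (TCA) cycle, its refilling reactions and the carriers that link it to the cytosol were followed here in mouse gastrocnemius muscle through 29 genes, out of 51911 genes in the deposited count table. They were chosen by name for their role: 13 encode mitochondrial enzymes of the cycle, 6 encode cytosolic enzymes that handle the same metabolites, 5 encode mitochondrial enzymes that add or remove cycle intermediates, and 5 encode carriers of the inner mitochondrial membrane. All 29 passed the filter on low counts. RNA came from male mice, 3 libraries of HSA-PGC-1a3 transgenic muscle (genotype alpha3_tg) against 3 of wild-type muscle. The transgene drives the alpha3 form of the coactivator PGC-1alpha from the HSA promoter, that of human skeletal actin, whose activity is known from muscle fibres. The labels state neither age, strain, founder line nor how many animals stand behind a library, so each p-value below measures the spread between these libraries, which may be technical.

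The cycle burns acetyl groups from carbohydrate, fat and amino acids inside mitochondria and passes their electrons to the respiratory chain. Citrate synthase starts it and malate dehydrogenase closes it. Anaplerotic enzymes such as pyruvate carboxylase restore intermediates that are drawn off. Since the inner membrane does not let NADH through, the malate-aspartate shuttle carries its electrons inwards with malate dehydrogenases and aspartate aminotransferases on both sides of the membrane and a pair of carriers between them. The glycerol phosphate shuttle, with Gpd1 in the cytosol and Gpd2 at the inner membrane, is the alternative route in fast muscle. PGC-1alpha is known for raising the transcription of oxidative genes, together with the oestrogen-related receptors (ERR) and nuclear respiratory factors (NRF).

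Total counts ran from 25532146 to 40846872 per library, and a count of 3 equalled 0.0804 to 0.134 CPM. The members with the fewest counts were Slc25a13 at 25 to 73 and Ogdhl at 30 to 106, and those with the largest standard errors were Slc25a13 and Slc25a1 (SE 0.30 and 0.29 on the log2 scale). CPM here are counts per 1000000 counts of a library after TMM scaling, a correction for the makeup of each library. Ppargc1a, the gene from which the transgene is made, stood at 2449 to 3238 CPM with the transgene, against 51.1 to 53.5 CPM in wild type. Fast fibre markers summed to at least 65512 CPM in every library, as in gastrocnemius. Their sum was 67503 ± 2208 CPM with the transgene, against 147720 ± 4615 CPM in wild type (SD, n = 3 each). With TMM 8 of 8 fell, as did 25.2% of all genes tested. Scaled to library totals alone, 7 of the 8 were lower, and Mylpf did not pass (log2 fold change 0.052). Fold changes depended on the scaling: the median log2 fold change of all tested genes was -0.016 with TMM and 0.38 with totals alone, a shift of 0.40. Fold changes below use TMM, and the counts with totals alone stand beside them.

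Short stretches upstream of RefSeq transcription starts (GRCm38.p6) show some of the promoters behind the results below, in which Mdh2, Cs, Sucla2 and Slc25a12 fell, Mdh1 and Slc25a11 rose and Got1 did not pass. Of the 29 genes, 27 matched the RefSeq promoter table. Capitals mark a cAMP response element in Mdh2, an NRF1 element in Sucla2, the core of an ERR element in Got1 and CCAAT boxes in Mdh1, Cs and Slc25a11, while the Slc25a12 stretch holds none of the 7 motifs searched. The stretches of Mdh2, Mdh1 and Sucla2 are short because GENCODE places exons there. Their places are chr5:135778511-135778540 on the plus strand for Mdh2, chr11:21571990-21572019 on the minus strand for Mdh1 and chr14:73552756-73552785 on the plus strand for Sucla2. Those of the others are chr19:43524796-43524855 on the minus strand for Got1, chr10:128337577-128337726 on the plus strand for Cs, chr11:70647040-70647189 on the minus strand for Slc25a11 and chr2:71367756-71367905 on the minus strand for Slc25a12.
Mdh2: ggagagaatcgTGACGTCAggcctcgctcg
Mdh1: acagacgcgctCCAATcaccgaggctcagc
Sucla2: caactgcgtctctGCGCCTGCGCggtgccc
Got1: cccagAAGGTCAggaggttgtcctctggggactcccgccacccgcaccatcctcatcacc
Cs: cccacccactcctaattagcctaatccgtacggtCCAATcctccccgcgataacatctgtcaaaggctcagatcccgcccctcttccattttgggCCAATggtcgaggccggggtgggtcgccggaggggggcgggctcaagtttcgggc
Slc25a11: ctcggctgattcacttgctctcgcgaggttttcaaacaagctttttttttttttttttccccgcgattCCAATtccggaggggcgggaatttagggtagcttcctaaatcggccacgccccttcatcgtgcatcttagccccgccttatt
Slc25a12: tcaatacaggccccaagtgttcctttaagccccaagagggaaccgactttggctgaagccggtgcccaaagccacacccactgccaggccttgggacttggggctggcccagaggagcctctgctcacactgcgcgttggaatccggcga

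Each motif was sought on both strands from 250 bases before to 50 bases after every RefSeq start. The ERR element TCAAGGTCA was in 0 of 27 members and in 0.466% of the 27025 genes with a promoter entry. Its core AAGGTCA was in 2 members, Ogdh and Got1, and in 5.38% of all genes, and any full element also counts as a core. The NRF1 element was in 1 member, Sucla2 (5.19% of all genes), the cAMP response element TGACGTCA in 2, Ogdh and Mdh2 (2.03%), and the E-box CACGTG in 5 (8.09%). The ETS element CCGGAAG was in 4 members, Idh3b, Idh3g, Dlst and Glud1 (9.93%), and CCAAT in 17 (41.1%). A match is a run of letters, not a measured binding site.

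Most mitochondrial cycle genes were lower in transgenic muscle relative to the other genes, and cytosolic ones were mixed. Of the 29 genes, 16 fell and 4 rose at a Benjamini-Hochberg adjusted p of 0.05 (edgeR quasi-likelihood test), and 9 did not pass. Of all 16593 genes tested, 50.7% passed, 25.2% lower and 25.5% higher. DESeq2 gave the 29 genes the same calls, where 45.6% of all genes passed, 22.8% in each direction. The 20 that passed were also the 20 whose CPM did not overlap between genotypes, a state that 59.6% of all genes shared (30.1% higher and 29.5% lower). The median log2 fold change was -0.24 over the 29 and -0.016 over all genes. That of the 29 was -0.36, -0.39 and -0.40 without transgenic replicate 1, wild-type replicate 2 and wild-type replicate 3. It was -0.18 without transgenic replicate 3. Scaled to library totals alone, 6 passed as lower and 12 as higher, and the median of the 29 turned to 0.15, below the 0.38 of all genes there, so their distance from the median gene was -0.22 with TMM and -0.23 with totals. With totals 61% of all genes passed, 8.73% lower and 52.3% higher. In bulk muscle, fewer cells of a type and less RNA per cell cannot be told apart.

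**Figure D1:**
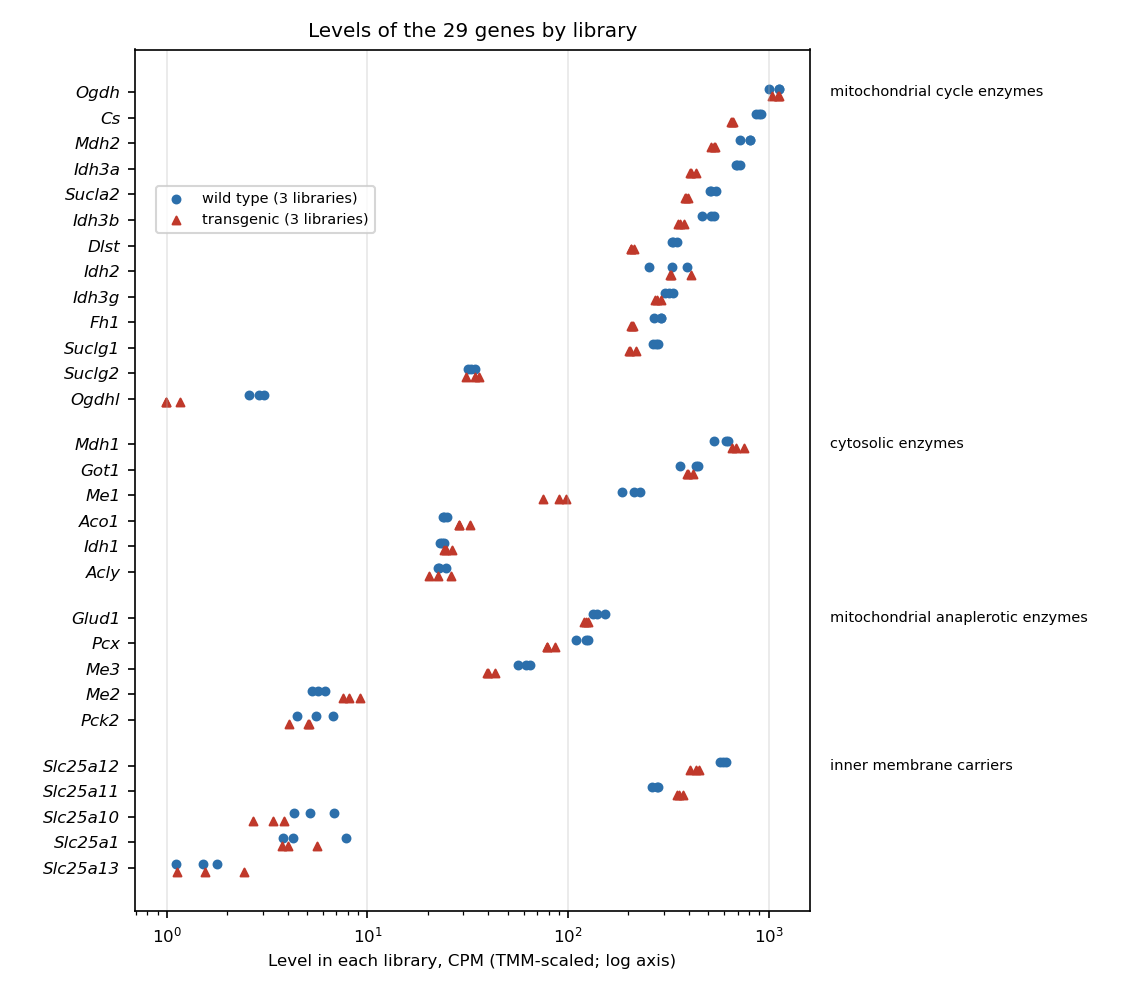
Level of each of the 29 genes in each library, in CPM on a log axis, grouped by role and ordered by wild-type mean. Circles are the 3 wild-type and triangles the 3 transgenic libraries. The genotypes do not overlap for 20 of the 29 genes, a state that 59.6% of all genes tested shared.

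The cycle enzymes gave the most uniform picture: 10 of 13 fell, 0 rose, and the median log2 fold change was -0.43. Of all genes, 25.2% fell and 25.5% rose. With totals alone 4 of the 13 were lower and 4 higher, with a median of -0.039, which is again 0.42 below the median gene. Idh3a, the catalytic subunit of NAD-dependent isocitrate dehydrogenase (chromosome 9, 54586334 to 54604661, GRCm38), stood at 408, 432 and 408 CPM with the transgene, against 697, 719 and 689 CPM in wild type. Every transgenic library lay far below every wild-type one, and the log2 fold change was -0.75 (SE 0.06, adjusted p = 1.96e-06, n = 3 each). Dlst, the transferase core of the 2-oxoglutarate dehydrogenase complex, stood at 206, 214 and 206 CPM against 330, 334 and 350 CPM. The groups were again well apart, at -0.70 (SE 0.05, adjusted p = 1.75e-06). Mdh2, the mitochondrial malate dehydrogenase (chromosome 5, 135778480 to 135790398), stood at 517, 540 and 533 CPM against 718, 809 and 811 CPM. Wild-type replicate 1 was the lowest of its group and still above all transgenic libraries, and the change was -0.56 (SE 0.07, adjusted p = 4.33e-05). Idh3a, Dlst and Mdh2 also passed as lower with totals alone (-0.36, -0.30 and -0.16).

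A second set of cycle enzymes shared one size of change. Cs, citrate synthase and the textbook measure of mitochondrial content, stood at 663, 649 and 658 CPM with the transgene, against 863, 922 and 896 CPM in wild type. Its groups did not overlap and differed by -0.44 (SE 0.06, adjusted p = 8.64e-05). Fh1, fumarase, fell by 0.43 (SE 0.05), Sucla2, the ADP-forming beta subunit of succinyl-CoA ligase, by 0.43 (SE 0.06), its alpha partner Suclg1 by 0.40 (SE 0.05) and the Idh3b subunit by 0.47 (SE 0.07) on the log2 scale. With totals alone these 5 genes lay between -0.076 and -0.003 and none passed, so their fall is relative to the other genes of the library. Idh3g, the regulatory gamma subunit, fell least (-0.19, SE 0.06, adjusted p = 0.0183). Its groups, 270 to 290 CPM against 304 to 332 CPM, barely separated. The call ended without transgenic replicate 1, transgenic replicate 3 or wild-type replicate 3 (adjusted p = 0.0953, 0.0581 and 0.0665), and with totals alone the gene was higher (0.20).

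Of the cycle enzymes that did not pass, Ogdh, the 2-oxoglutarate-oxidising E1 component, had the most counts, at 1110, 1131 and 1044 CPM with the transgene, against 1000, 1127 and 1123 CPM in wild type. The groups lay over each other (0.016, SE 0.07, adjusted p = 0.868). Suclg2, the GDP-forming beta subunit, differed by 0.029 on the log2 scale (SE 0.07, adjusted p = 0.756). Idh2, which makes NADPH from isocitrate in mitochondria, varied from 253 to 390 CPM within the wild type and from 322 to 410 CPM within the transgenic group (0.12, SE 0.18, adjusted p = 0.621). With totals alone Ogdh, Suclg2 and Idh2 were higher (0.41, 0.43 and 0.52). Ogdhl, a paralogue of Ogdh known mainly from brain, had few counts, at 0.99, 1.17 and 0.99 CPM against 2.56, 3.05 and 2.90 CPM. The groups did not overlap, and its change was the largest of the 29 (-1.44, SE 0.19, adjusted p = 9.28e-05).

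**Figure D2:**
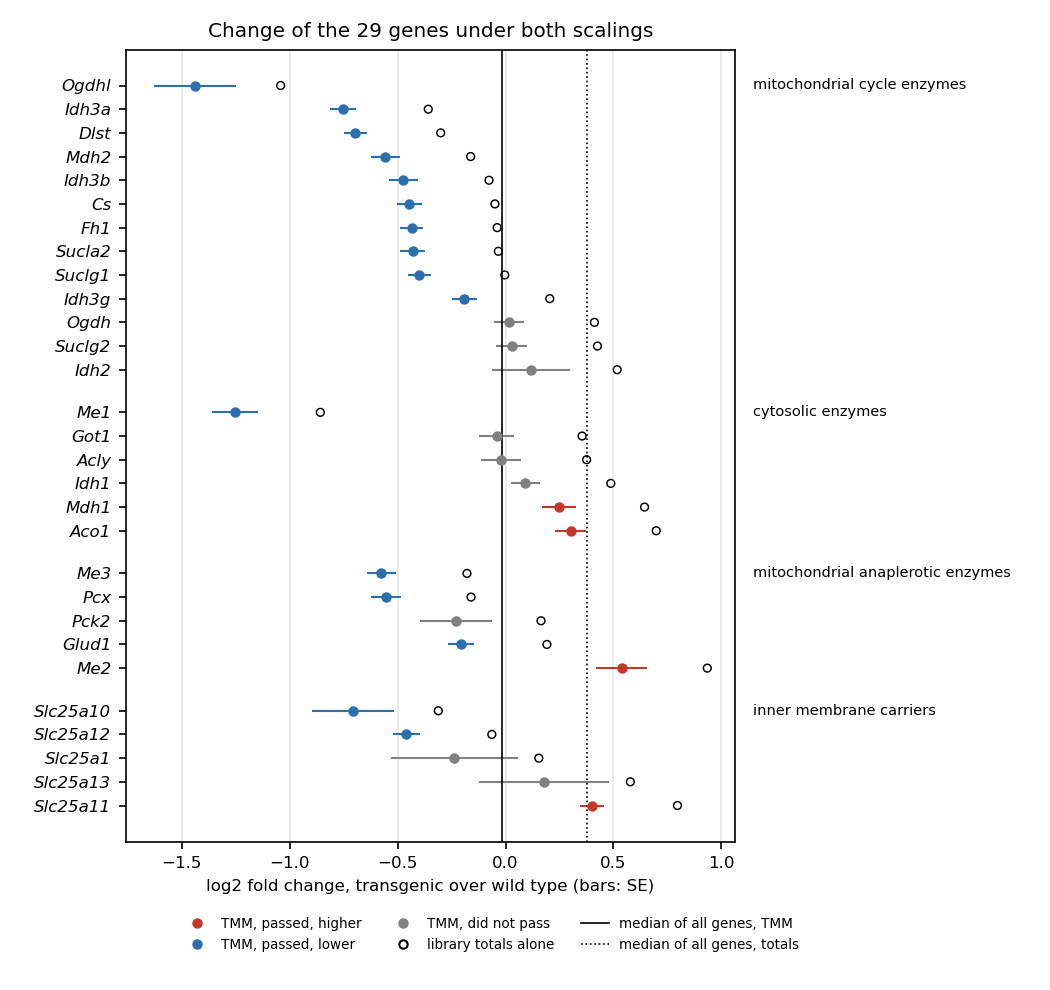
The log2 fold change of each gene, transgenic over wild type, with TMM (filled, bars SE, coloured by whether the gene passed an adjusted p of 0.05) and with library totals alone (open). The vertical lines mark the median of all genes under each scaling, -0.016 and 0.38, and the order of the genes is the same under both.

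Of 6 cytosolic enzymes, 2 rose, 1 fell and 3 did not pass (median 0.036), where 25.5% of all genes rose and 25.2% fell. With totals alone 5 of the 6 were higher and 1 lower, where 52.3% of all genes were higher and 8.73% lower. Mdh1, the cytosolic malate dehydrogenase (chromosome 11, 21556787 to 21572367), stood at 688, 755 and 659 CPM with the transgene, against 533, 626 and 612 CPM in wild type. The lowest transgenic library was only just above the highest wild-type one. The rise of 0.25 (SE 0.08, adjusted p = 0.0222) was lost without wild-type replicate 1, the lowest library (0.17, adjusted p = 0.0787). The gene shares 52 exonic bases with Wdpcp on the other strand, and counting ignored strand. Aco1, a cytosolic aconitase that doubles as an iron-regulatory RNA-binding protein, stood at 28.5, 28.7 and 32.5 CPM against 24.1, 23.8 and 25.0 CPM. Its groups were apart, and it rose by 0.30 (SE 0.07, adjusted p = 0.00469).

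Me1, the cytosolic malic enzyme that turns malate into pyruvate and NADPH (chromosome 9, 86581371 to 86695953), went the other way. It stood at 90.7, 97.8 and 75.3 CPM with the transgene, against 228, 214 and 186 CPM in wild type. The wild type was 2.38-fold higher, with wide clear space between the groups (-1.25, SE 0.11, adjusted p = 2.40e-05), and Me1 was also lower with totals alone (-0.86). Only Me1 and Ogdhl among the 29 passed with at least a 2-fold change under TMM, as did 10.7% of all genes. The other cytosolic genes did not pass: Idh1, which makes NADPH from isocitrate in the cytosol, at 0.092 (SE 0.07, adjusted p = 0.280), the aspartate aminotransferase Got1 at -0.042 (SE 0.08, adjusted p = 0.698) and Acly, which cleaves citrate for lipid synthesis, at -0.020 (SE 0.09, adjusted p = 0.877). With totals alone Idh1, Got1 and Acly were higher (0.49, 0.35 and 0.38).

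Of 5 mitochondrial anaplerotic enzymes, 3 fell and 1 rose, where 25.2% of all genes fell and 25.5% rose. The median of the 5 was -0.23, or -0.39 without wild-type replicate 2 and -0.18 without transgenic replicate 3. With totals alone 1 was lower and 2 higher (median 0.16). Pcx, pyruvate carboxylase, which makes oxaloacetate from pyruvate, stood at 78.9, 78.8 and 86.3 CPM with the transgene, against 125.4, 109.3 and 123.6 CPM in wild type. The groups were well separated (-0.55, SE 0.07, adjusted p = 5.06e-05), though with totals alone the gene did not pass (-0.16). Me3, the NADP-dependent mitochondrial malic enzyme, stood at 39.5, 39.7 and 43.4 CPM against 56.5, 64.5 and 61.6 CPM. It fell by 0.58 (SE 0.07, adjusted p = 3.91e-05) and shares 569 exonic bases with A230065N10Rik on the other strand, out of 14624. The part of such shared bases in the values was not tested. Me2, the NAD-dependent form, was low and rose, from 5.29, 5.70 and 6.15 CPM in wild-type to 8.12, 7.56 and 9.16 CPM in transgenic libraries (0.54, SE 0.12, adjusted p = 0.00267). Every transgenic library was above every wild-type one. Glud1, glutamate dehydrogenase, had a small fall (-0.20, SE 0.06, adjusted p = 0.0151) that was lost without wild-type replicate 2 (adjusted p = 0.0502) and turned to 0.19 with totals alone. Pck2, the mitochondrial phosphoenolpyruvate carboxykinase, did not pass (-0.23, SE 0.17, adjusted p = 0.279).

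Among the 5 carriers, 1 rose and 2 fell, where 25.5% of all genes rose and 25.2% fell. The median of the 5 was -0.24, and it turned to 0.14 without wild-type replicate 1 and was -0.42 without wild-type replicate 3. With totals alone 1 was higher, 0 were lower, and the median was 0.15. Slc25a11, the oxoglutarate-malate carrier (chromosome 11, 70644196 to 70647479), stood at 351, 359 and 372 CPM with the transgene, against 263, 278 and 279 CPM in wild type. The groups were far apart for their spread, a rise of 0.40 (SE 0.06, adjusted p = 1.34e-04), also called with totals alone (0.80). It shares 189 exonic bases with Rnf167 on the other strand. Slc25a12, the calcium-regulated aspartate-glutamate carrier that works beside it, stood at 407, 435 and 448 CPM against 572, 591 and 611 CPM. It fell by 0.46 (SE 0.06, adjusted p = 1.10e-04), and did not pass with totals alone (-0.063). The ratio of Slc25a11 to Slc25a12 counts within a library needs no scaling and was 1.82-fold higher in transgenic muscle, a value chosen after both genes had been seen and therefore not tested.

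The dicarboxylate carrier Slc25a10 stood at 3.39, 2.70 and 3.86 CPM with the transgene, against 6.80, 5.18 and 4.32 CPM in wild type. Its groups did not overlap but their spread was wide (-0.71, SE 0.19, adjusted p = 0.00953), 228 of its exonic bases are shared with Gm11788, and the call ended without replicate 1 of both genotypes (adjusted p = 0.0717) or replicate 2 of both (adjusted p = 0.0635). The citrate carrier Slc25a1 stood at 5.62, 3.76 and 4.02 CPM against 7.84, 4.26 and 3.79 CPM. Replicate 1 was the highest of both groups and the difference did not pass (-0.24, SE 0.29, adjusted p = 0.536). Slc25a13, the liver-type paralogue of Slc25a12, did not pass either (0.18, SE 0.30, adjusted p = 0.649).

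Levels per kilobase of exon allow a rough comparison of genes with each other. The length used joins all annotated exons of a gene, and the transcripts expressed may be shorter. Ranks here and shares per exon length below depend on that length. In wild-type muscle the highest were Mdh1 at 230, Mdh2 at 219, Ogdh at 199, Got1 at 163 and Cs at 155 CPM per kilobase. Mdh1 and Mdh2 lay within 1 SD of each other, 19.5 for Mdh1 and 14.9 for Mdh2. In transgenic muscle Mdh1 came first at 273, then Ogdh at 201, Slc25a11 at 170, Got1 at 158 and Mdh2 at 149 CPM per kilobase. Slc25a11 had thus moved from place 9 to 3 among the 29 genes and Mdh2 from 2 to 5, while Idh3a went from 7 to 11. The lowest in wild type were Me2 at 0.788, Pck2 at 0.714, Ogdhl at 0.683 and Slc25a13 at 0.388 CPM per kilobase.

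Mitochondrial and cytosolic forms of an enzyme were then set against each other within each library, where scaling cancels. For malate dehydrogenase, log2 of Mdh2 over Mdh1 counts was 0.43, 0.37 and 0.41 in wild-type and -0.41, -0.49 and -0.31 in transgenic libraries. All wild-type libraries held more Mdh2 counts and all transgenic libraries more Mdh1 counts, a difference of -0.80, or 1.75-fold. Per exon length, Mdh2 made up 48.8% ± 0.53 of the summed level of both genes in wild-type and 35.3% ± 1.42 in transgenic muscle (SD, n = 3). The ratio of Cs to Acly, which make and cleave citrate, was lower by 0.42 on the log2 scale, with no overlap either.

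The malic enzymes went in the opposite direction. Log2 of Me2 over Me1 was -5.42, -5.23 and -4.92 in wild-type and -3.48, -3.69 and -3.04 in transgenic libraries, a 3.45-fold higher ratio, and Me3 over Me1 was 0.68 higher on the log2 scale. Under TMM, Me1 and Me3 fell and Me2 rose. The remaining mitochondrial-over-cytosolic pairs overlapped between genotypes: Idh2 over Idh1 differed by 0.042 and Got2 over Got1 by -0.11 on the log2 scale (exact permutation p = 0.90 and 0.20, two-sided, n = 3 each).

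Subunits and paralogues also shifted against each other. Log2 of Idh3g over Idh3a was -1.20, -1.17 and -1.05 in wild-type and -0.60, -0.58 and -0.56 in transgenic libraries. The transgenic libraries lay close together and on average 0.56 higher, and Idh3b over Idh3a was 0.28 higher. Per exon length, Idh3a was the larger of the Idh3a and Idh3g levels in wild-type muscle and the smaller in transgenic muscle, with Idh3g at 46.0% ± 1.34 and 55.7% ± 0.332 of their sum (SD, n = 3). Suclg2 over Sucla2 was 0.46 higher on the log2 scale, and the GDP-forming subunit rose from 5.16% ± 0.0607 to 6.96% ± 0.450 of the sum of both per exon length (SD, n = 3). Ogdhl over Ogdh was 2.72-fold lower, from 0.343% ± 0.0107 to 0.126% ± 0.00936 of their sum (SD, n = 3). Slc25a13 over Slc25a12 overlapped between genotypes (exact permutation p = 0.30).

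Of the 11 ratios, 8 did not overlap between genotypes, where 59.6% of single genes did not. The 11 ratios were themselves chosen with earlier results of these data known. The share among ratios of other genes was not computed, so the count of 8 is a description. For each of these 8 the exact permutation p was 0.10, the smallest that 3 libraries against 3 allow (two-sided; adjusted over the 11 ratios p = 0.138), so none could pass 0.05.

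**Figure D3:**
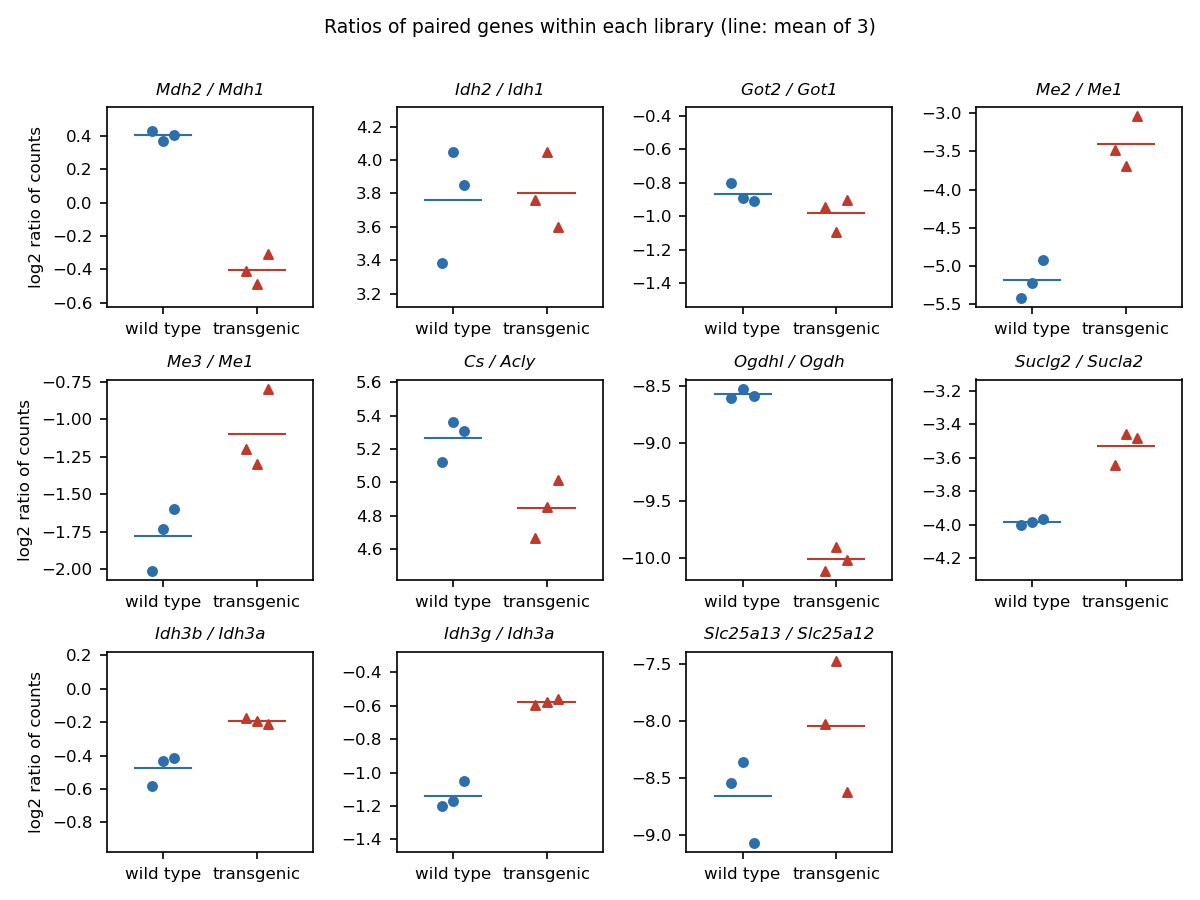
Log2 ratio of the counts of paired genes in each library (points) with the mean of each genotype (line). Scales differ between panels, and Mdh2 over Mdh1 lies above 0 in all 3 wild-type and below 0 in all 3 transgenic libraries. The counts are not divided by exon length. Per exon length, Mdh2 made up 48.8% of the sum of both genes in wild-type and 35.3% in transgenic muscle.

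Genes of the same pathways outside the 29 were examined as a list of 20, of which 19 were tested: 12 fell, 1 rose and 6 did not pass (median -0.50). With totals alone 8 of the 19 were lower and 6 higher. Of all genes, 25.2% fell and 25.5% rose with TMM, and 8.73% were lower and 52.3% higher with totals. Among the cycle enzymes on that list 4 of 5 fell. Sdhc, a membrane anchor of succinate dehydrogenase, fell by 0.67 (SE 0.06), Dld, the shared E3 dehydrogenase, by 0.55 (SE 0.05), the flavoprotein Sdha by 0.50 (SE 0.07) and Sdhd, another membrane anchor, by 0.42 (SE 0.06). Sdha and Sdhd did not pass with totals alone (-0.099 and -0.027).

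Both dehydrogenases of the glycerol phosphate shuttle fell. Gpd1, the cytosolic glycerol-3-phosphate dehydrogenase, stood at 257, 271 and 265 CPM with the transgene, against 721, 706 and 728 CPM in wild type. The wild type was 2.72-fold higher, with tight groups (-1.44, SE 0.06, adjusted p = 3.08e-08). Gpd2, its mitochondrial partner, stood at 92.4, 90.5 and 87.4 CPM against 291, 276 and 260 CPM. The wild type was 3.06-fold higher (-1.62, SE 0.06, adjusted p = 2.26e-08), and both genes were lower with totals alone (-1.05 and -1.22). They share 384 exonic bases with Gm16537 and 487 with A930012O16Rik, respectively.

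In the malate-aspartate shuttle the changes ran from -0.56 for Mdh2 to 0.40 for Slc25a11, with Got2, the mitochondrial aspartate aminotransferase, at 205, 196 and 210 CPM against 207, 234 and 238 CPM and not called (-0.15, SE 0.06, adjusted p = 0.0681). Got2 shares 434 of 4824 exonic bases with Gm45760 and was higher with totals alone (0.24). Within a library, Mdh1 counts over Gpd1 counts were -0.44, -0.17 and -0.25 on the log2 scale in wild-type and 1.42, 1.48 and 1.32 in transgenic muscle, so Mdh1 had fewer counts than Gpd1 in the former and more in the latter. Slc25a12 over Gpd2 was 2.23-fold higher in transgenic muscle, although both genes fell under TMM. These 2 ratios were picked after the values were seen and carry no test. Slc25a22, a mitochondrial glutamate carrier, was the 1 gene of this list that rose (0.60, SE 0.10, adjusted p = 5.96e-04).

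**Figure D4:**
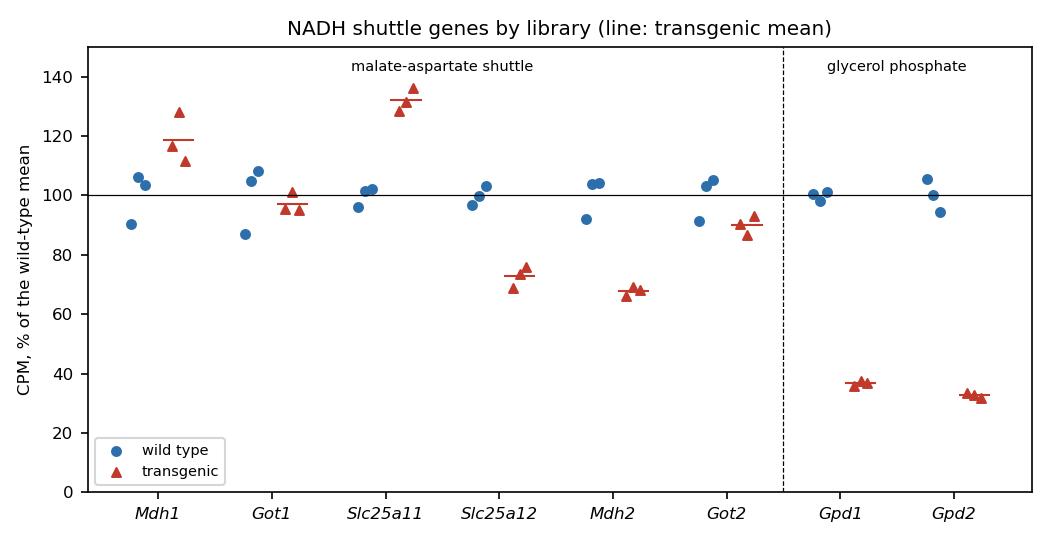
CPM of NADH shuttle genes in each library, as a percentage of the gene's wild-type mean (line at 100). Transgenic libraries (triangles) lie above that line for Mdh1 and Slc25a11, below it for Slc25a12, Mdh2 and Got2, and lowest for Gpd1 and Gpd2. Got2 did not pass, and its genotypes overlap.

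Other routes into the cycle were lower or did not pass. Pcca, the alpha subunit of propionyl-CoA carboxylase, fell by 1.08 (SE 0.06, adjusted p = 1.88e-07), while its partner Pccb had a value of -0.018 (adjusted p = 0.832) and was higher with totals alone (0.38). Pcca shares 241 of 5210 exonic bases with Ggact. Gpt2, the mitochondrial alanine aminotransferase, fell by 0.93 (SE 0.09) and the ketone body enzyme Oxct1 by 0.27 (SE 0.06). Oxct1 turned positive with totals alone (0.12, not called) and shares 467 of 3701 exonic bases with BC037032. The purine nucleotide cycle, which yields fumarate in working muscle, fell in 3 of 3 genes: Ampd1 by 1.11 (SE 0.11), Adssl1 by 0.84 (SE 0.07) and Adsl by 0.48 (SE 0.07), the last of which did not pass with totals alone.

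Markers of other cells were measured beside these genes. Adipocyte markers summed to 179, 144 and 148 CPM with the transgene, against 370, 201 and 188 CPM in wild type, and of the 8 markers 2 fell, 0 rose and 0 had no counts. Replicate 1 was the highest of both groups, as it was for Slc25a1. Most of each sum came from Fabp4, with a mean of 131.9 CPM with the transgene and 186.6 CPM in wild type. Fabp4 and Adig were the 2 markers that fell. The median log2 fold change of the 8 markers was -1.34, but it was 0.19 when wild-type replicate 1 was left out, where 1 marker fell. In that fit 5 of the 8 values were positive, whereas all 8 were negative with every library kept. Without replicate 1 of both genotypes the median was -0.31, all 8 were negative and 1 marker fell. With totals alone 0 of the 8 markers passed. Without wild-type replicate 1 the log2 fold change of Slc25a1 turned from -0.24 to 0.14, and those of Me1 and Slc25a10 kept their sign and their call. Slc25a10 lost its call without replicate 1 of both genotypes (edgeR, adjusted p = 0.0717). The part of adipocytes in the Me1, Slc25a1 and Slc25a10 values was not tested. Slow fibre markers summed to 1442, 2818 and 1233 CPM with the transgene, against 877, 1927 and 735 CPM in wild type. Replicate 2 was the highest of both groups, and 0 of 7 markers passed. With the replicate block 3 passed as higher (Myh7, Tnnt1 and Atp2a2) and 1 as lower (Myl3), while DESeq2 called Atp2a2 alone. Idh2 was also highest in replicate 2 of both, at 410 and 390 CPM. It shared this with other members, among them Ogdh (1131 and 1127 CPM), Mdh1 (755 and 626 CPM) and Idh3a (432 and 719 CPM). The part of fibre makeup in these values was not tested. Without replicate 2 of both genotypes, 14 of the 29 genes fell and 3 rose.

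**Figure D5:**
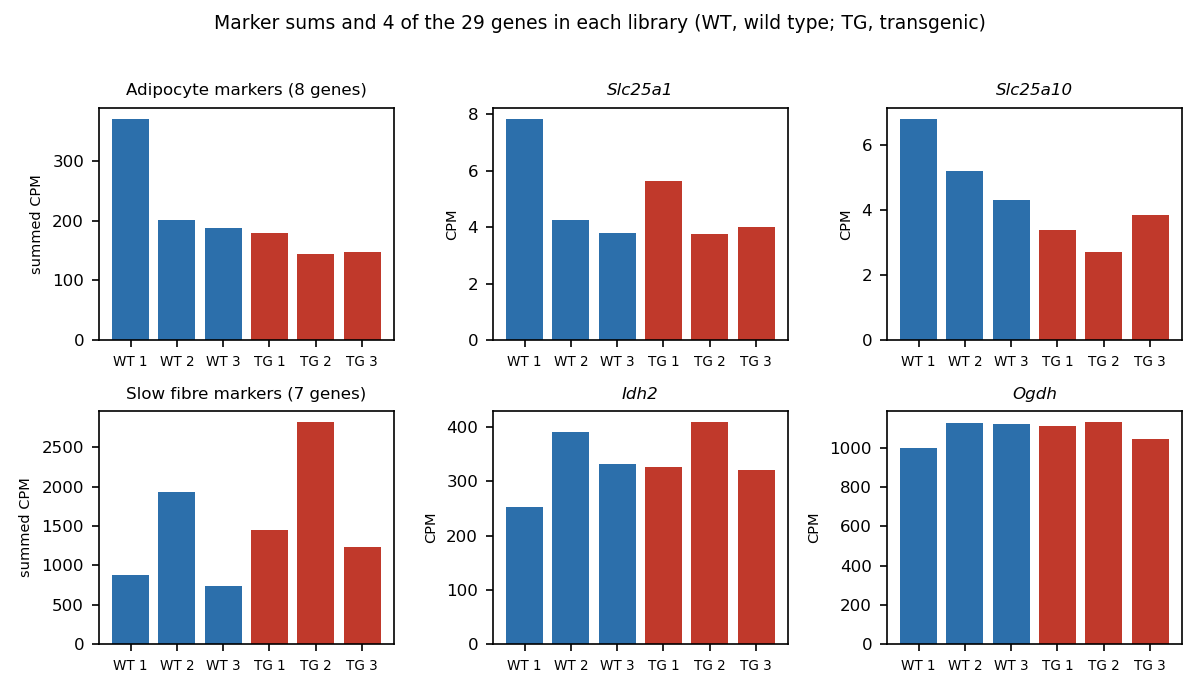
Summed CPM of 8 adipocyte and 7 slow fibre markers and CPM of 4 members in each library (bars from 0, WT wild type, TG transgenic). Replicate 1 is highest in adipocyte markers and Slc25a1 in both genotypes, and replicate 2 in slow fibre markers, Idh2 and Ogdh.

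Endothelial markers, which mark another mitochondria-bearing cell of muscle, summed to 339 ± 10.3 CPM with the transgene, against 428 ± 16.9 CPM in wild type (SD, n = 3). All 6 fell and 0 had no counts, and with totals alone 0 of the 6 passed. Of 7 macrophage markers, 2 rose and 0 fell, and their sum ran from 62.7 to 73.0 CPM against 43.2 to 71.4 CPM. Of 5 Schwann cell markers 0 passed, and of 5 red blood cell markers 3 fell. With totals alone 0 of the 5 red blood cell markers passed (median 0.014). The part of all these cells in the results was not tested.

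The authors' deposited table held 3614 genes, and its smallest fold change in either direction is 0.585 on the log2 scale. Of the 29 genes 6 were in it, all lower in transgenic muscle. How the 3614 split into higher and lower was not counted, so the 6 are a description. That table gave a log2 fold change of -1.242 for Ogdhl, -1.126 for Me1, -0.74 for Idh3a, -0.687 for Dlst, -0.629 for Slc25a10 and -0.614 for Me3. The edgeR values had the same sign for all 6.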

How the data were processed

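RNA came from pulverised frozen gastrocnemius by Trizol, per the labels' protocols. The submitters' processing notes name STAR 2.5.0a, featureCounts 2.0.0, DESeq2 and the build GRCm38.p6. Counting ignored strand and let 1 fragment count for several overlapping genes, per the file headers. The deposited table holds raw counts. In the authors' deposited table of differential expression are log2 changes with p-values.

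Columns were matched to samples by name, and symbols to 51633 of 51911 IDs. Exon lengths, positions and shared exonic bases came from GENCODE vM21. In R 4.3.3, genes were filtered with filterByExpr, scaled with TMM and tested in edgeR 4.0.16 (robust quasi-likelihood F test, genotype as the sole term, Benjamini-Hochberg, threshold 0.05). A standard error is the absolute log2 fold change over the square root of F. Ratios used log2 of counts plus 0.5 and exact permutation. Alternatives were DESeq2 1.42.0, other scalings and filters, limma-voom (limma 3.58.1), no robust estimation, no mitochondrially encoded genes, a replicate block and left-out libraries. Members, lists, ratios and motifs were chosen with earlier results of these data known. All members, all ratio genes and up to 4 other genes per list past the threshold, by smallest p, are named. Some genes of these lists and a ratio are not reported here. Pccb was named after its value was seen. No libraries of a genotype were duplicates (chi-square over degrees of freedom 10.5 to 26.0).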

Additional observations from a re-analysis of the deposited data

How the results depend on the processing

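DESeq2, upper-quartile factors, the stricter filter, limma-voom, no robust estimation and removal of mitochondrially encoded genes changed the direction or call of 0 of the 29 genes. Scaling to library totals alone moved most counts. All genes then had 8676 higher and 1448 lower calls, the 29 genes 12 and 6, cycle enzymes 4 and 4, and anaplerotic enzymes 2 and 1. Of cytosolic enzymes 5 were higher, of carriers 0 were lower, and of the other pathway genes 6 were higher and 8 lower. The medians became 0.154 (all 29), -0.039 (cycle), 0.432 (cytosolic), 0.164 (anaplerotic) and 0.154 (carriers). Among the genes named, signs turned for Idh3g (0.205), Got1 (0.355), Acly (0.376), Glud1 (0.192), Pck2 (0.164), Slc25a1 (0.154), Oxct1 (0.122), Got2 (0.245) and Pccb (0.379). With no filter, Acly turned to 0.017 and Idh3g lost its call.

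Leaving out each library in turn gave 3 to 4 higher and 15 to 16 lower of the 29 genes and 1 to 2 higher cytosolic genes. The medians then ran from -0.400 to -0.179 (all 29), from -0.386 to -0.179 (anaplerotic) and from -0.424 to 0.135 (carriers). Uncalled log2 fold changes crossed 0: Idh2 (-0.040 to 0.266), Ogdh (-0.046 to 0.060), Suclg2 (-0.0055 to 0.109), Got1 (-0.140 to 0.011), Acly (-0.098 to 0.073), Slc25a1 (-0.424 to 0.135) and Slc25a13 (-0.137 to 0.426). The Idh2 over Idh1 difference ran from -0.145 to 0.186. Without replicate 1 of both genotypes, 1 cytosolic gene was higher, 1 carrier was lower and Ogdh stood at -0.047. Without replicate 2 of both, 1 cytosolic gene was higher, 1 carrier was lower, and the medians were -0.411 (all 29) and -0.426 (anaplerotic). Without replicate 3 of both, the median of the 29 was -0.333, Got1 stood at 0.047 and Acly at 0.057. The cause was not tested.

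The labels do not say that the replicate numbers pair the samples. Deviations of same-numbered libraries correlated at 0.10, -0.088 and -0.21, and those of different-numbered ones at -0.19 to 0.25. Whether same-numbered libraries share a factor was not tested. With the replicate block, 4 of the 29 genes were higher and 16 lower, and of all genes 4165 and 4166. Low counts limit Ogdhl, Slc25a13, Slc25a10, Slc25a1 and Pck2.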
